A study of Mus musculus with 2 samples.

Results

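The ATP-driven ion and lipid pumps described here are the genes of the proton-pumping V-ATPase and of the P-type ATPases. Earlier results of these data were known when the pumps were chosen. They were taken by gene symbol from the mouse Atp1, Atp2, Atp4 and Atp6 to Atp13 series, which gave 68 of 22558 genes. Of these, 26 were V-ATPase genes (Atp6) and 42 were P-type genes. Their levels were compared between sorted cells of mouse breast tumours, in the inbred strain FVB. A first library was made from tumour-initiating cells (TIC) and a second from non-tumorigenic cells (NTC), and the cells of both were untreated and sorted by flow cytometry directly after the tumours were dissociated. Each group had 1 library, so there was no replicate, no error estimate and no test, and every difference is one between these 2 libraries. The tumour model, the sort gate and any pooling of animals are not stated in the labels or files.

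The V-ATPase is a rotary motor. Its V1 sector in the cytosol splits ATP, and its V0 sector in the membrane carries protons into lysosomes, endosomes, the Golgi and secretory vesicles, or out of the cell in acid-secreting epithelia. Several subunits have a widespread form and a form restricted to such epithelia. P-type ATPases instead pass a phosphate through their own catalytic chain. Different branches move sodium and potassium, calcium, copper, or phospholipids, and in the mammary gland the calcium and copper branches supply metal ions to milk.

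Levels are FPKM, fragments scaled to transcript length and library depth, and where 2 levels are joined by "against", TIC comes first. A difference is given as the log2 ratio of TIC to NTC after adding 1 FPKM to each, which understates differences of low genes. The 2-fold limits apply to this ratio. Genes whose mean over the libraries reached 1 FPKM are called measured. From low values of short receptor genes, 1 FPKM was estimated to rest on roughly 21.0 fragments per kb in TIC and 21.6 in NTC. Only values within a preset range, the same for both libraries, were used, so the estimates could not fall outside it. All 8 basal mammary markers were at least 2-fold higher in TIC (summed level 3732 against 39.9 FPKM), and all 11 luminal and milk markers at least 2-fold lower (75.2 against 6068 FPKM). Of 7 immune markers found, 4, among them Ptprc, were listed at 0 in both libraries, and their summed level was 2.39 against 2.22 FPKM. The 6 fibroblast markers summed to 174 against 2.44 FPKM, and the 4 that passed the filter were each past 2-fold toward TIC (median log2 ratio 3.04). Dcn had 152 against 1.51 FPKM, Col1a2 9.56 against 0.0119, Pdgfra 8.83 against 0.513 and Pdgfrb 2.44 against 0.0701, while Col1a1 (0.459 against 0.339) and Lum (0.573 against a listed 0) were under the filter. Endothelial (2.94 against 0.351 FPKM), muscle (0.0869 against 0.949) and erythroid markers (0.106 against 5.74) were low. The osteoclast list (51.3 against 23.1 FPKM) was almost wholly Acp5, with Oscar and Calcr listed at 0 in both, and the neural list (357 against 301) was mostly Sox10. The part of these cell types in the pump levels was not tested. In such bulk libraries, fewer cells of a type and less RNA per cell cannot be told apart.

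V-ATPase genes were lower in TIC in most cases, by modest amounts, while P-type genes differed in both directions. Of the 26 V-ATPase genes, 21 were measured, and 18 of these (85.7%) were lower in TIC by any amount, where the share over the 12004 measured genes of the libraries was 59.1%. The V-ATPase median of log2 ratios was -0.67, and the median over those 12004 genes was -0.16. A difference of at least 2-fold was rarer. It was found for 3 V-ATPase genes lower in TIC (14.3%), close to the background of 13.8%, and for 1 higher (4.76%, background 14.6%). Of the 42 P-type genes, 26 were measured, with 7 (26.9%) at least 2-fold lower and 5 (19.2%) at least 2-fold higher in TIC. Their median of 0.039 was close to 0 and its sign depended on the filter, since it was -0.077 when only genes averaging 5 FPKM or more were kept. Of the 47 measured pump genes, 10 reached 1 FPKM in only 1 library, so a difference was built into their selection, and 9 of these 10 were among the 16 that differed by at least 2-fold in either direction (28.4% of all measured genes did).

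**Figure D1:**
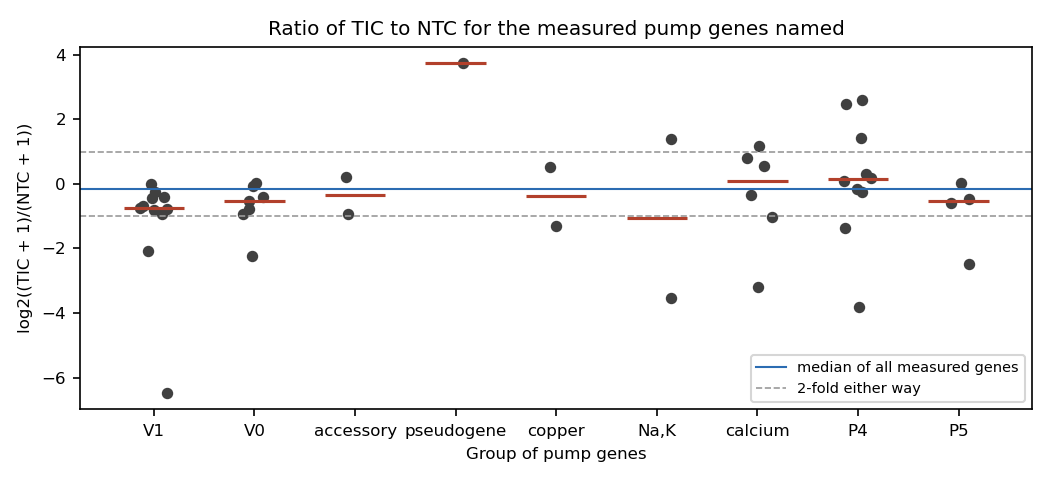
Log2 ratio of TIC to NTC for the measured pump genes named in the text, by group (points; red bars, group medians), with the median of all measured genes (-0.16, blue line) and 2-fold limits (dashed). The V1 points all lie at or below -0.01, whereas the P4 points run from -3.82 to 2.60.

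The V1 sector, which holds the ATP-splitting ring, had the largest single difference among all pump genes. Atp6v1b1 encodes the B1 form of the nucleotide-binding B subunit, the form known from acid-secreting cells of the kidney, inner ear and epididymis. It lies on chromosome 6 (83693011 to 83708804, build mm9). Its level was 0.170 FPKM in TIC and 102 FPKM in NTC, a log2 ratio of -6.46. The TIC value corresponds to about 7 fragments and the NTC value to about 4416. Thus the gene was near the detection limit in one library and among the 3 highest V-ATPase genes of the other. The widespread form, Atp6v1b2, had 16.3 against 26.6 FPKM, over a listed locus of 76.0 kb that is longer than the 25.0 kb of RefSeq. Atp6v1b1 therefore made up 1.03% of the summed B level in TIC and 79.3% of that in NTC.

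The other V1 gene past 2-fold was Atp6v1c2, the epithelial form of the C subunit, which joins the sectors of the pump (chromosome 12, 17273401 to 17331536, mm9). It had 26.8 FPKM in TIC and 116 FPKM in NTC, a log2 ratio of -2.07. Unlike Atp6v1b1, it was the main C form in both libraries, with 74.0% of the summed C level in TIC and 87.4% in NTC. The widespread Atp6v1c1 had 9.39 against 16.8 FPKM. The listed locus of Atp6v1c2 spans 58.1 kb, against 40.7 kb in RefSeq, and what the added length holds was not tested.

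The promoters of these genes are shown because they are the V1 genes that differed by at least 2-fold. The 250 bases before the start of each were taken from RefSeq (build GRCm38.p6, not the build of the expression files), chr6:83742767-83743016 on the plus strand for Atp6v1b1 and chr12:17324731-17324980 on the minus strand for Atp6v1c2. Capitals mark the forkhead motif TGTTTAC, searched on both strands.
Atp6v1b1: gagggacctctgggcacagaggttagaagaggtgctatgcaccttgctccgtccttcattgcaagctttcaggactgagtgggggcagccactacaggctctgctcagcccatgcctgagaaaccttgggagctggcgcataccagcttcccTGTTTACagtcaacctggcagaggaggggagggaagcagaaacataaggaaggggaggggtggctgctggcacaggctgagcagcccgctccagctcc
Atp6v1c2: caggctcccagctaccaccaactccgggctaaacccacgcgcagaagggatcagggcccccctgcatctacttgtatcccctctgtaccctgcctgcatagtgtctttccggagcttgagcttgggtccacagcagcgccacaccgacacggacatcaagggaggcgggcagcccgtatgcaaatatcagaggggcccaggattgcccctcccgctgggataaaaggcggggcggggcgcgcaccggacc
The motif begins 98 bases before the start of Atp6v1b1 and has no match in the Atp6v1c2 window. It occurs in 3.65% of 32851 RefSeq promoter windows of 300 bases (250 before and 50 after the start). Among the pump genes, it was in 1 of 21 V-ATPase windows and in 1 of 36 P-type windows, that of Atp2c1. It was searched for after the values of the forkhead gene Foxi1 were seen, and a match is a description of the letters only. Foxi1, a transcription factor known to be needed for Atp6v1b1 in acid-secreting kidney cells, had 39.6 FPKM in NTC and a listed 0 in TIC.

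The remaining V1 subunits have a main widespread form each, and these were lower in TIC by less than 2-fold after 1 FPKM was added. Atp6v1a, the catalytic A subunit, had 27.8 against 49.1 FPKM (log2 ratio -0.80). Atp6v1h, a regulatory subunit that restrains ATP splitting by free V1, had 9.41 against 18.9 FPKM (-0.94), or 2.01-fold without the added FPKM. The rotor subunit Atp6v1d had 25.1 against 34.7 FPKM, and its partner Atp6v1f had 52.1 against 52.5. Atp6v1f was the least different V1 gene. For the peripheral stalks, Atp6v1e1 had 35.2 against 46.6 FPKM and Atp6v1g1 had 42.7 against 51.3. The minor stalk form Atp6v1g2, known from neurons, had 1.25 against 2.82 FPKM, and Atp6v1e2 and Atp6v1g3 were listed at 0 in both libraries. All 11 measured V1 genes (100%, background 59.1%) were lower in TIC with the values as deposited. The 2 V1 genes past 2-fold toward NTC were 18.2% of them, where the background was 13.8%. Atp6v1f turned slightly higher in TIC with centring on the median gene (0.15) or with scaling of the libraries to one sum (0.16).

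The pump holds equal numbers of A and B subunits, and FPKM, being per length, allows their levels to be set side by side. The B forms together had 16.5 FPKM in TIC against 129 in NTC, so the ratio of B to A levels was 0.592 in TIC and 2.62 in NTC. For the C subunit the ratio to A was 1.30 in TIC and 2.70 in NTC. Transcripts of B were thus above A in NTC and below A in TIC, while C was above A in both libraries. The equal numbers concern A and B only, and any effect of the RNA amplification on these ratios was not tested.

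**Figure D2:**
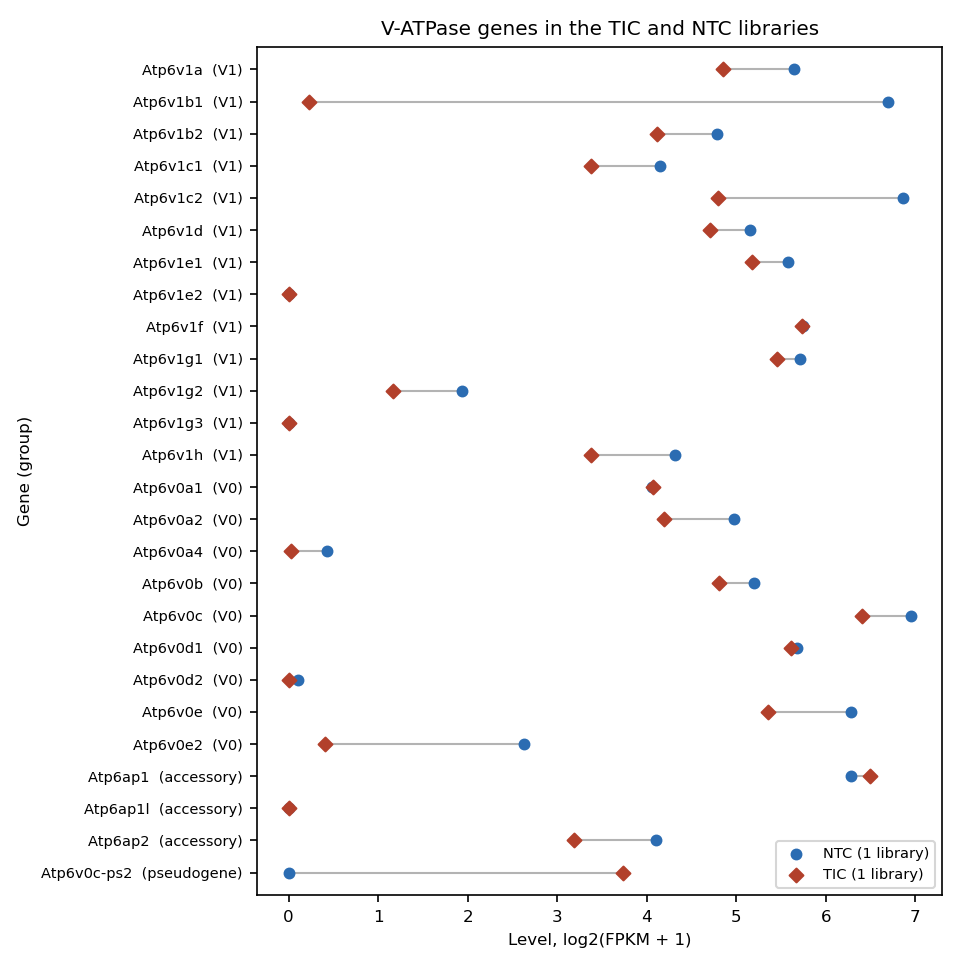
Level of each V-ATPase gene as log2(FPKM + 1) in the TIC library (red diamonds) and the NTC library (blue circles), 1 library each. Atp6v1b1 has the longest line, from 0.170 FPKM in TIC to 102 FPKM in NTC, and most other lines are short with the TIC point on the left.

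The V0 sector was lower in TIC for 6 of 7 measured genes (85.7%, background 59.1%), 1 of them past 2-fold (14.3%, about the background of 13.8%). Atp6v0e2, a variant of the small e subunit, had 0.328 FPKM in TIC (about 12 fragments) and 5.20 FPKM in NTC, a log2 ratio of -2.22. With a pseudocount of 5 FPKM this ratio was -0.94, inside 2-fold. The main form Atp6v0e had 39.8 against 77.1 FPKM (-0.94), close to the limit. The e subunit was the V0 part with the largest difference in summed level (40.2 against 82.3 FPKM). Atp6v0d1, which couples the rotor to the membrane ring, had 47.8 against 50.3 FPKM, and its small difference of -0.07 changed sign to 0.09 with centring and 0.10 with scaling. The osteoclast form Atp6v0d2 had 0.0764 FPKM in NTC and a listed 0 in TIC.

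The a subunit passes protons through the membrane and directs the pump to its compartment. Atp6v0a1 was nearly the same in both libraries, with 15.9 against 15.6 FPKM, and Atp6v0a2, the Golgi and endosome form, had 17.4 against 30.4. Tcirg1, the a3 form of lysosomes and osteoclasts, whose symbol falls outside the Atp6 series, had 20.1 against 24.1 FPKM. Each of these supplied between 22.2% and 43.1% of the summed a level in either library, so no single form dominated. The kidney form Atp6v0a4 had 0.0172 FPKM in TIC and 0.347 in NTC, about 1 and 25 fragments. It was higher in NTC like Atp6v1b1, but at a far lower level. Its listed locus, at 206 kb, was longer than the 76.1 kb of RefSeq, and what the added length holds was not tested.

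The ring that carries protons is built mainly of the c proteolipid. Atp6v0c had 83.7 against 123 FPKM (log2 ratio -0.55), and the related Atp6v0b had 27.0 against 35.7 (-0.39). A second row, Atp6v0c-ps2, is named as a pseudogene of Atp6v0c and is listed at the same locus (chromosome 17, 24300832 to 24306374, mm9). It had 12.3 FPKM in TIC and 0.00352 in NTC, a log2 ratio of 3.73, and was the V-ATPase row counted as at least 2-fold higher. How fragments were divided between these near-identical sequences is not stated in the labels or files, so the row is uncertain. Added together, the rows had 96.0 against 123 FPKM, a log2 ratio of -0.35. Without the pseudogene, no V-ATPase gene was at least 2-fold higher in TIC (background 14.6%), and 18 of 20 were lower by any amount (90%, background 59.1%).

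**Figure D3:**
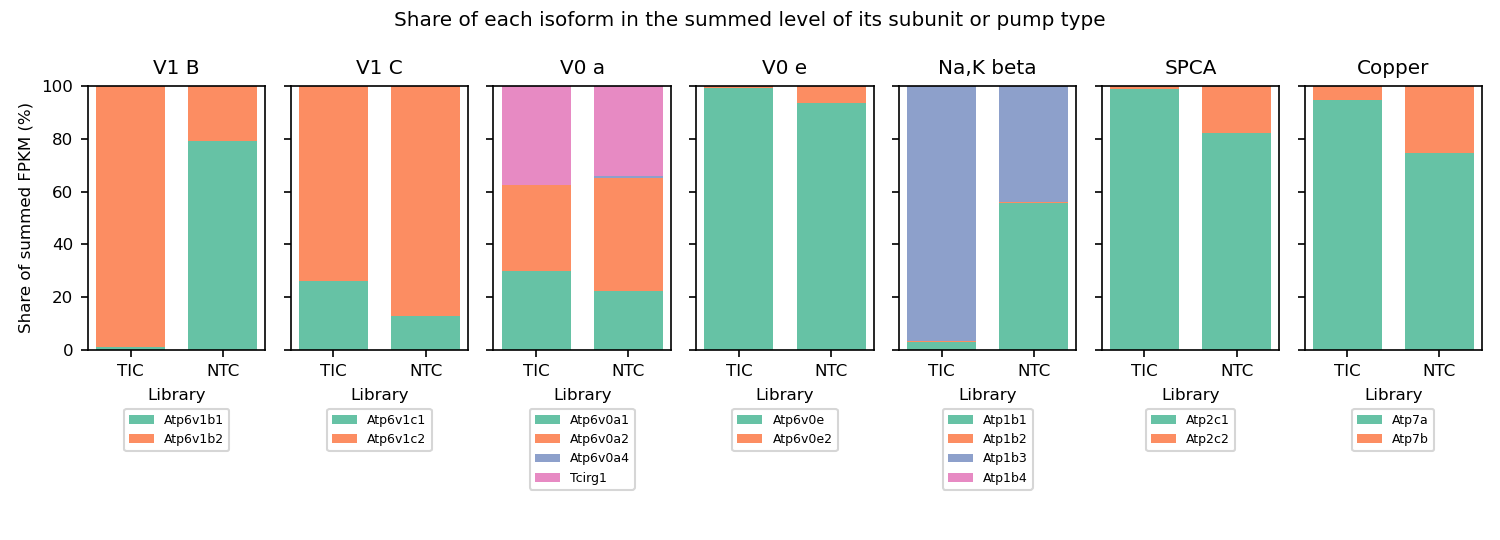
Share (%) of each isoform in the summed FPKM of its subunit or pump type, in 1 TIC and 1 NTC library (stacked bars, each summing to the whole). The B forms of V1 and the beta forms of the sodium pump differ most, with Atp6v1b1 at 1.03% in TIC and 79.3% in NTC and Atp1b1 at 3.15% and 55.8%.

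Accessory proteins differed from each other. Atp6ap1 (Ac45), which helps V0 to assemble, had 89.3 against 77.1 FPKM. Atp6ap2, the prorenin receptor, had 8.08 against 16.2 FPKM (-0.92). Atp6ap1l was listed at 0 in both. Partners outside the Atp6 series mostly stayed within 2-fold. Of 17 listed, 14 were found and 13 measured, with a median log2 ratio of -0.11. None was past 2-fold toward TIC (background 14.6%) and 1, Foxi1, toward NTC (background 13.8%). Rnasek, a V0-associated protein, had 185 against 289.6 FPKM. The assembly factors Vma21 (4.48 against 4.90 FPKM) and Tmem199 (4.54 against 5.02) were nearly level, and Ccdc115 had 15.8 against 28.6. Among the factors that return V1 to V0, Dmxl1 had 8.57 against 11.9 FPKM, Dmxl2 3.98 against 2.17, Wdr7 7.79 against 5.74 and Rogdi 15.1 against 16.2.

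The E-box CACGTG, the core of the sequence bound by TFEB-type regulators of lysosomal genes, was looked for in the promoters of the pump genes. The search describes the letters only, and a link to the levels was not tested. RefSeq windows were matched for 44 of the 68 genes, 18 of them V-ATPase genes. The motif was present in 4 of 21 V-ATPase windows (19.0%), in 3 of 36 P-type windows (8.33%) and in 7.15% of all windows. The longer CLEAR element, which contains the E-box, was searched only as exact matches to 1 sequence of 10 bases. That exact sequence was in no V-ATPase window, in 1 P-type window (Atp2b1) and in 0.326% of all. Forms of the element that differ from it by any base were not searched for. The counts therefore do not show that V-ATPase windows lack CLEAR elements. The 4 V-ATPase matches are shown as 30 bases each around the E-box, which is in capitals and reads the same on both strands. Positions are in GRCm38.p6, chr16:44139373-44139402 (minus), chr4:117887348-117887377 (minus), chr8:105566050-105566079 (minus) and chr17:26676387-26676416 (plus).
Atp6v1a: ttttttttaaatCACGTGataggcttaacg
Atp6v0b: gtgcgcgggggtCACGTGgggtcggcgcat
Atp6v0d1: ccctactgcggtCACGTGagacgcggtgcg
Atp6v0e: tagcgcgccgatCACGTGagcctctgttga
These genes had log2 ratios between -0.94 and -0.07, and Atp6v0b holds a second E-box 18 bases before its start. The Atp6v1b1 and Atp6v1c2 windows hold none.

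Among P-type pumps, the sodium pump (Na+/K+-ATPase) had a beta subunit that differed in form between the libraries. The alpha subunit splits ATP and moves the ions, and the beta subunit brings it to the cell surface. Atp1b1, the usual epithelial beta form, had 3.52 FPKM in TIC and 51.1 in NTC, a log2 ratio of -3.53. Atp1b3 had 108 FPKM in TIC and 40.3 in NTC, a ratio of 1.40 in the other direction. The shares of beta level were 3.15% for Atp1b1 and 96.6% for Atp1b3 in TIC, against 55.8% and 44.0% in NTC.

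The summed beta level was much less different than its parts, at 112 FPKM in TIC and 91.6 in NTC. Atp1b1 lies on chromosome 1 (166237806 to 166388486, mm9) and Atp1b3 on chromosome 9 (96233095 to 96264718). The listed locus of Atp1b1 spans 151 kb, against 21.3 kb in RefSeq, and what the added length holds was not tested. Atp1b2, the glial form, had 0.296 against 0.186 FPKM, and Atp1b4 was listed at 0 in both. The proton-potassium pumps of stomach and colon, Atp4a, Atp4b and Atp12a, had at most 0.0789 FPKM in either library.

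Regulators of the sodium pump also differed by form. Of 12 listed, 6 were measured, with 1 past 2-fold toward TIC and 3 toward NTC (median log2 ratio -0.90). Over all measured genes, 14.6% were past 2-fold toward TIC and 13.8% toward NTC. The small FXYD proteins bind the pump and tune its affinity for ions. Fxyd3 had 329 against 672 FPKM, Fxyd6 0.798 against 31.0 and Fxyd2, the kidney gamma subunit, 0.436 against 2.78. These 3 were the lower ones. The Fxyd3 ratio of -1.03 lay just past 2-fold, and centring or scaling was not tried for these regulators. Fxyd5 had 2.61 against 1.98 FPKM. Nkain1, a protein that interacts with the beta subunit, was the higher one, with 11.2 against 2.29 FPKM, and the kinase Sgk1 had 20.9 against 36.6.

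Calcium pumps differed most in the Golgi branch. These secretory pathway pumps (SPCA) load calcium and manganese into the Golgi, from where calcium leaves with milk proteins. Atp2c2, the SPCA2 form of secretory epithelia (chromosome 8, 122223909 to 122281618, mm9), had 0.219 FPKM in TIC (about 15 fragments) and 10.3 FPKM in NTC, a log2 ratio of -3.21. Atp2c1, the widespread SPCA1, had 22.6 against 47.0 FPKM. Its ratio of -1.03 lay just past 2-fold and was inside it with centring (-0.86), scaling (-0.86) or a pseudocount of 5 FPKM (-0.92). Atp2c2 supplied 0.963% of the SPCA level in TIC and 17.9% in NTC.

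In the endoplasmic reticulum branch (SERCA), the widespread Atp2a2 was higher in TIC, 142 against 97.3 FPKM (0.54), and made up over 98.4% of the summed level in each library. Atp2a3 had 2.13 FPKM in TIC and 0.399 in NTC, a ratio of 1.16 that was 0.40 with a pseudocount of 5 FPKM. The muscle form Atp2a1 had 0.154 against 0.0183 FPKM. At the plasma membrane (PMCA), Atp2b1 had 31.5 against 40.6 FPKM (-0.36) and Atp2b4 1.82 against 0.626 (0.79). Atp2b2, the form known to export calcium into milk, had 0.0411 FPKM in TIC and 0.164 in NTC. It was thus low also in the library with high casein levels. The neuronal and muscle form Atp2b3 had 0.159 FPKM in TIC and a listed 0 in NTC. The rows of Atp2a3, Atp2b1, Atp2b4 and Atp2c1 carry several gene identifiers and may join or divide the transcripts of several genes.

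Calcium entry and sensing genes that work beside these pumps differed in both directions. Of 17 listed, 14 were measured, 3 past 2-fold toward TIC and 1 toward NTC, with a median log2 ratio of 0.0017. The shares over all measured genes were 14.6% toward TIC and 13.8% toward NTC. The store sensor Stim1 had 38.1 against 9.86 FPKM and the channel Orai2 12.9 against 0.756. Orai1, the channel that SPCA2 is known to open in mammary cells, was the lower one, with 11.3 against 28.1 FPKM. Pthlh, a hormone that mobilises calcium from bone, had 28.7 FPKM in TIC and 0.0707 in NTC. The channels Itpr1 (17.5 against 23.7 FPKM), Itpr2 (16.7 against 21.5) and Itpr3 (12.6 against 21.7), which release stored calcium, were within 2-fold, and the calcium-sensing receptor Casr was listed at 0 in both.

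The copper pumps had opposite directions. Atp7a, which exports copper from most cells, had 15.5 against 10.5 FPKM (0.52). Atp7b, the form of liver and lactating mammary gland whose loss causes the toxic milk phenotype of mice, had 0.858 against 3.55 FPKM (-1.29, and -0.55 with a pseudocount of 5 FPKM). Atp7b supplied 5.26% of the summed level in TIC and 25.3% in NTC. Of 8 copper-handling genes listed, all were measured, with a median of -0.92. Past 2-fold were 3 toward NTC (background 13.8%) and none toward TIC (background 14.6%). These 3 were the copper importer Slc31a1 (16.2 against 35.9 FPKM), its relative Slc31a2 (11.3 against 32.8) and metallothionein Mt2 (38.9 against 165). The Slc31a1 ratio of -1.10 lay just past 2-fold, and centring or scaling was not tried for these genes. The chaperone Atox1, which hands copper to both pumps, had 85.5 against 99.4 FPKM.

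The P4 branch holds the flippases, which move phospholipids from the outer to the inner leaflet of a membrane. Among the P-type branches, its members had the widest range of ratios. Of 15 genes, 11 were measured, 3 (27.3%) past 2-fold toward TIC and 2 (18.2%) toward NTC, where 14.6% and 13.8% of all measured genes were. The higher ones were of class I. Atp8a1, a phosphatidylserine flippase, had 14.0 against 1.70 FPKM (2.47), and its relative Atp8a2, known from neurons, had 5.98 against 0.155 (2.60, about 43 fragments in NTC). Atp8b2 had 8.67 against 2.60 FPKM, a ratio of 1.43 that was 0.85 with a pseudocount of 5 FPKM. Thus both Atp8a genes were higher in TIC, and Atp8a2 was low in NTC.

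The lower ones were of other classes. Atp10b, a flippase of late endosomes and lysosomes, had 0.577 FPKM in TIC (about 83 fragments) and 21.3 FPKM in NTC, a log2 ratio of -3.82 (chromosome 11, 42963379 to 43075787, mm9). Its listed locus spans 112 kb, against 250 kb in RefSeq, so its fragment number is less certain, and what the listed locus leaves out was not tested. Atp11a, a phosphatidylserine flippase of the plasma membrane, had the highest level of the branch in both libraries, 34.7 against 91.5 FPKM (-1.37). It made up 27.4% of the summed P4 level in TIC and 51.4% in NTC. Its relative Atp11b was nearly level, with 13.8 against 16.5 FPKM.

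The other measured flippases lay within 2-fold. Atp9a and Atp9b, of endosomes and the trans-Golgi, had 19.4 against 16.9 and 9.38 against 8.74 FPKM. Atp8b1, the flippase of bile canaliculi, had 5.24 against 4.01 FPKM, and Atp10d 7.49 against 8.59. Below the filter, Atp10a had 1.23 FPKM in TIC and 0.187 in NTC, while Atp8b3, Atp8b4 and Atp8b5 had at most 0.275 FPKM. Most flippases need a CDC50 protein to leave the endoplasmic reticulum. Tmem30a, the widespread one, had 21.6 against 13.5 FPKM, and Tmem30b, the epithelial one, had 5.54 against 39.9 (log2 ratio -2.64). Of the proteins that scramble lipids between leaflets, Ano6 had 44.1 against 24.2 FPKM, Xkr8 1.27 against 2.29 and Plscr1 2.16 against 7.30. Among the 6 listed flippase partners, 5 were measured, with a median of -0.53. Past 2-fold were 2 toward NTC, Tmem30b and Plscr1 (background 13.8%), and none toward TIC (background 14.6%). The Plscr1 row carries several gene identifiers.

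**Figure D4:**
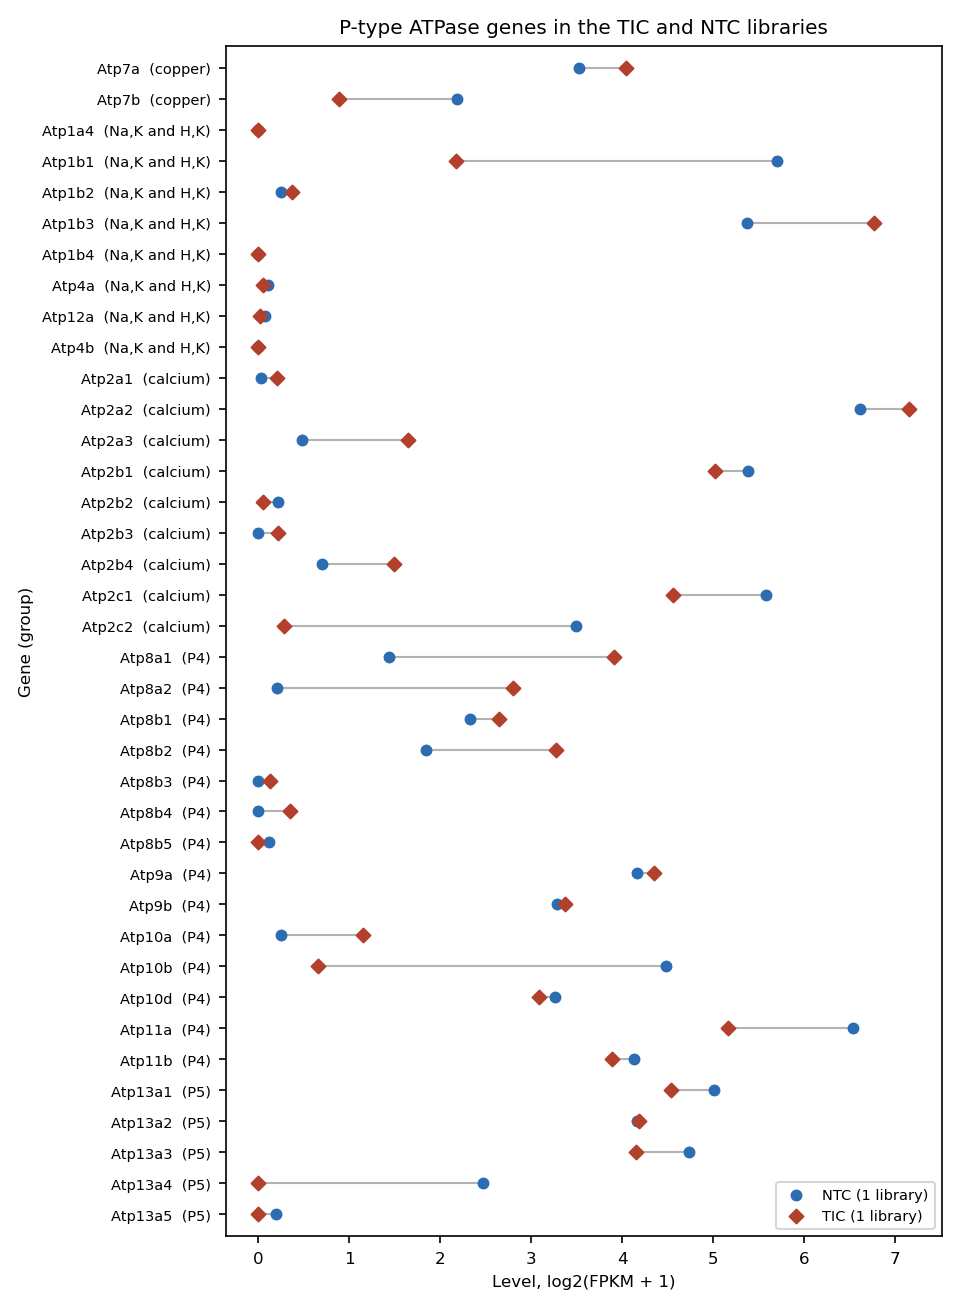
Levels of the P-type ATPase genes described, as log2(FPKM + 1) in the TIC library (red diamonds) and the NTC library (blue circles), 1 library each. Atp1b1, Atp10b and Atp2c2 lie far to the left in TIC, and Atp8a1 and Atp8a2 lie far to the right.

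The P5 branch, which moves polyamines and membrane helices, was lower in TIC for 3 of 4 measured genes (75%, background 59.1%). Atp13a1, which removes misplaced helices from the endoplasmic reticulum, had 22.3 against 31.2 FPKM (-0.47). Atp13a2, the lysosomal polyamine exporter, was level at 17.2 against 16.9, and Atp13a3, a polyamine transporter, had 16.7 against 25.5 (-0.58). Atp13a4 had 4.53 FPKM in NTC and a listed 0 in TIC, a ratio of -2.47 that was -0.93 with a pseudocount of 5 FPKM. Its neighbour on chromosome 16, Atp13a5, likewise had 0.148 FPKM in NTC and a listed 0 in TIC. The loci of Atp13a5 (29232000 to 29378818), Atp13a4 (29396124 to 29544950) and Atp13a3 (30312510 to 30388616) lie in this order in build mm9, and only the widely expressed Atp13a3 had a level above 1 FPKM in both libraries.

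Of the 21 pump genes under a mean of 1 FPKM, 5 were V-ATPase and 16 P-type genes, and Atp10a, with a mean of 0.708 FPKM, was the highest. A value of 0 in both libraries was listed for 8 of the 68 genes, among them Atp1a4, the sperm form of the sodium pump. A listed 0 is not read as absence.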

How the data were processed

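RNA from 1 TIC and 1 NTC library was amplified from a small input, fragmented and sequenced, per the labels' protocols. The values are FPKM as deposited by the authors, and Cufflinks, Cuffdiff, TopHat 1.4.0, CASAVA 1.8.2 and build mm9 are listed, without roles or settings, per the submitters' processing notes. The locus heading names a human build, but 99.7% of 20009 symbols matched the mouse RefSeq chromosome. Starts 1 below the RefSeq start (198 genes) outnumbered equal ones (12), so positions were shifted up by 1.

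Ratios used Python 3.11.15 and pandas 2.3.3, and the calculation was tested on simulated data. Fragment numbers multiply FPKM by the length in kb of the longest GENCODE M21 protein-coding transcript. The product is divided by a rough depth estimate (0.0476 FPKM × kb per fragment in TIC from 23 genes, 0.0463 in NTC from 39). These numbers cover counting only. Members with a mean of at least 1 FPKM are named, but some genes are not reported here. The members and lists were chosen with earlier results of these data known. Rows with several gene identifiers number 11 of the 68. A planned protein motif comparison was not made. Other pseudocounts, filters and scalings were tried.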

Additional observations from a re-analysis of the deposited data

How the results depend on the processing

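No paired analysis was possible because each group holds 1 library, and no library could be left out. Of the 16 pump genes at least 2-fold different, 10 remained so with a pseudocount of 5 FPKM, 16 with 0.1 FPKM (where Atp2b4 at 1.40 and Atp6v1g2 at -1.11 were added), and 15 with centring on the median gene or scaling to one FPKM sum. The shares of all measured genes higher and lower moved too, from 14.6% and 13.8%. They were 9.05% and 7.67% with a pseudocount of 5 FPKM, and 16% and 16.4% with 0.1 FPKM. With centring they were 16.3% and 11.3%, and with scaling 16.2% and 11.4%.

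The V-ATPase median of -0.67 kept its sign in each alternative run. It was -0.70 with a pseudocount of 0.1 FPKM, -0.53 with 5 FPKM, -0.55 with a mean of at least 5 FPKM or with no filter, -0.51 with centring, -0.51 with scaling, and -0.72 without Atp6v0c-ps2, with that row added to Atp6v0c, or without rows of several gene identifiers. In these last 3 settings, chosen after seeing the data, the number of V-ATPase genes at least 2-fold higher was 0 in place of 1, because the pseudogene row was removed. The P-type median was 0.026 with a pseudocount of 5 FPKM, -0.077 with a mean of at least 5 FPKM, 0.056 with no filter or without genes listed at 0, 0.20 with centring, 0.20 with scaling, and 0.022 without rows of several identifiers. P-type genes at least 2-fold higher numbered 3 with a pseudocount of 5 FPKM and 3 with a mean of at least 5 FPKM, in place of 5, and those at least 2-fold lower numbered 4 with a pseudocount of 5 FPKM, in place of 7. Over all measured genes, the share higher was 9.05% with that pseudocount and 12.3% with that filter, in place of 14.6%. The share lower was 7.67% with that pseudocount, in place of 13.8%. The lower numbers follow from the larger pseudocount, which shrinks ratios of low genes, and from fewer genes passing the filter. With 1 library per group, variation between animals or sorts is not measured, and values that rest on few fragments, such as those of Atp6v0a4 and of Atp6v1b1 in TIC, are imprecise.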

Other observations

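Atp6v1b1 and Foxi1 are known together from acid-secreting cells, so other genes of such cells were looked up after those values were seen, and no test was made. Car2, the cytosolic carbonic anhydrase, had 0.767 FPKM in TIC and 42.3 in NTC, and Rhbg, an ammonium transporter, had 0.0321 against 2.44. Hepacam2, a surface protein of intercalated cells, had 0.444 FPKM in NTC and a listed 0 in TIC. Slc4a1 and Slc26a4, the anion exchangers of the kidney acid- and base-secreting cells, Rhcg, Bsnd and Ascl3 were listed at 0 in both libraries. Cftr had 0.438 FPKM in TIC and 0.0301 in NTC, and Slc4a9 had 0.0220 FPKM in TIC and a listed 0 in NTC. Thus Car2 and Rhbg were higher in the NTC library beside Foxi1 and Atp6v1b1, while the other 8 genes looked up were below 1 FPKM in both.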
